A study of Mus musculus with 22 samples.

Results

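Hi-C contact maps of early-G1 cells were compared between cells that kept the architectural factor CTCF and cells from which it had been removed during mitosis. The cells were taken 60 min after release from a prometaphase arrest. The 4 early-G1 libraries, of 22 libraries in the series, form 1 group of 2 without auxin (-auxin) and 1 group of 2 with auxin (+auxin). The authors merged the libraries of each group before they measured boundaries and loops, so each feature has 1 value per treatment. All features listed in the deposited tables were used, which are 16370 loops and 6376 domain boundaries.

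The cells were G1E-ER4, a subline of the GATA1-null mouse proerythroblast line G1E, grown uninduced. In every group, with or without auxin, both Ctcf alleles carried a fusion to the auxin-inducible degron and mCherry, and the cells expressed the plant protein OsTiR together with GFP from the retroviral vector MigR1. In the ana/telophase cells, used below as the stage before, this GFP also carried a mitotic degron (MD), so that stage comes from a different construct than prometaphase, early-G1 and mid-G1. OsTiR brings the degron to the ubiquitin ligase when auxin is present, so that the tagged protein is degraded. All cells were arrested with 200 ng/ml nocodazole, which blocks spindle assembly, and were then released. The +auxin cells received auxin at the end of the arrest and in the release medium. Early-G1 cells were sorted for a 2N DNA content, -auxin cells as mCherry-positive and +auxin cells as mCherry-negative. The sort on the tag and the treatment therefore cannot be told apart in the comparison. The labels call the cells erythroid. The tables hold contacts and no expression, so this label was not checked against marker genes.

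CTCF binds an asymmetric DNA motif and halts cohesin, the ring complex that extrudes chromatin into loops. Cohesin that stops at a pair of CTCF sites pointing towards each other leaves a focal contact between the sites, seen in Hi-C as a loop, and often a domain boundary at each foot. Enhancers and promoters, together called cis-regulatory elements (CREs), also contact each other without CTCF at their feet. Chromosomes in mitosis hold neither kind of loop to a marked degree, and both are rebuilt as cells enter G1.

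The authors sorted loops by what chromatin immunoprecipitation had found at their feet (anchors). Structural loops have CTCF and cohesin at both anchors and a CRE at no more than 1 of them. Dual-function loops have CTCF, cohesin and a CRE at both. CRE loops have a CRE at both anchors and CTCF with cohesin at no more than 1. The loops given no category in the table are called uncategorised here. The categories rest on binding in other experiments and not on the early-G1 contact values.

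The DNA at 3 structural loops shows the arrangement that a CTCF loop carries. They are among the strongest structural loops of the -auxin early-G1 map with this arrangement. Each loop holds exactly 1 match to the 12-letter CTCF core consensus at each anchor in the inward-pointing (convergent) orientation. They were taken from loops with anchors of 10 kb and not from every chromosome, so stronger loops of this kind may exist. Each sequence is given 5′ to 3′ on the strand that carries the match, from mouse build mm9, with the match in capitals and the flanking bases in lower case. The upstream sites lie on the forward strand and the downstream sites on the reverse strand.
Loop of 630 kb, upstream site, chr8:35243115-35243150, forward strand, outside protein-coding genes: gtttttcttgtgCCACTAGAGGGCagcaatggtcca
Loop of 630 kb, downstream site, chr8:35879385-35879420, reverse strand, intron of Dusp4: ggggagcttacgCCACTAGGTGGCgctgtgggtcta
Loop of 420 kb, upstream site, chr6:133910886-133910921, forward strand, outside protein-coding genes: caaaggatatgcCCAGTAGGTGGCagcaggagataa
Loop of 420 kb, downstream site, chr6:134339677-134339712, reverse strand, outside protein-coding genes: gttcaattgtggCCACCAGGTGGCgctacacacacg
Loop of 1440 kb, upstream site, chr16:85808061-85808096, forward strand, outside protein-coding genes: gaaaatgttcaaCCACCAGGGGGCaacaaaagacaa
Loop of 1440 kb, downstream site, chr16:87249079-87249114, reverse strand, outside protein-coding genes: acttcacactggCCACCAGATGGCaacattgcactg

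Loop strength is the number of observed contacts over the number expected from the surrounding pixels (O/E), averaged by the authors over 9 pixels at the loop summit. A strength of 1 means no enrichment over the surroundings. The 630 kb loop, whose downstream anchor holds the start of the phosphatase gene Dusp4, had a strength of 5.47 without and 2.09 with auxin. The 420 kb loop on chromosome 6 had 5.44 without auxin and lost strength by about as much, at a log2 ratio of -1.37. The 1440 kb loop, whose upstream anchor holds the start of the extracellular protease gene Adamts1, had 5.35 and 1.34. All 3 were weaker with auxin by over 1.5-fold while staying above a strength of 1. In prometaphase the 630 kb loop already had 1.23 without and 0.608 with auxin and the 1440 kb loop 1.98 and 0.600, whereas the 420 kb loop had 1.16 with auxin and little more without.

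Changes are given below as log2 of the +auxin over the -auxin value, so that negative values mean weaker with auxin, and a feature is counted as changed where it differs by at least 1.5-fold. With 1 merged map per treatment there is no replicate error, and no p-value was computed. The SD beside a median is that of the medians of the 20 chromosomes and describes spread across the genome, not between cultures. The 95% Wilson intervals beside shares cover counting error only and treat loops as independent, although many share anchors. The tables hold no contact counts, and the study's sequencing statistics were not used here, so the depth behind a single value is not given.

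In early-G1, 5136 of the 16370 loops were at least 1.5-fold weaker with auxin (31.4%) and 417 were at least 1.5-fold stronger (2.55%). By any amount, 74.7% were weaker. In prometaphase, where loops had yet to form and the same contrast can be read as a background, 9.52% of loops were at least 1.5-fold weaker and 6.46% at least 1.5-fold stronger. On the authors' scale the early-G1 share of weaker loops was thus above that in prometaphase and the share of stronger loops below it.

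Structural loops carried most of the loss. Of the 4837, 61.3% were at least 1.5-fold weaker (95% interval 59.9 to 62.6%) and 5 loops, or 0.10%, were at least 1.5-fold stronger, against prometaphase shares of 12.8% and 6.82%. Their median strength was 2.03 without and 1.23 with auxin. By any amount, 96.2% were weaker. The loop list joins calls from maps of either treatment, and only 72 structural loops were called in no -auxin map. All 5 stronger loops were among these 72. The low share stronger therefore depends on how loops entered the list.

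Dual-function loops, which unite CTCF sites and regulatory elements, were affected less. At least 1.5-fold weaker were 35.0% of the 3370 (95% interval 33.4 to 36.6%) and at least 1.5-fold stronger 2.67%, against 8.55% and 5.01% in prometaphase. Their median strength was 1.92 in -auxin and 1.48 in +auxin cells, and the interquartile range of their log2 changes ran from -0.73 to -0.04. The 455 dual-function loops called in no -auxin map had a median log2 change of 0.26, with 16.0% at least 1.5-fold stronger and 0.88% weaker.

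CRE loops were split evenly between weaker and stronger. Of the 4642, 5.88% were at least 1.5-fold weaker and 5.67% at least 1.5-fold stronger, both below the 7.13% and 7.22% seen for the same loops in prometaphase. The interquartile range of their log2 changes ran from -0.23 to 0.23 around a median of 0.01 (SD 0.03). This balance depends on which loops entered the list through calls of either treatment. The 1410 CRE loops never called without auxin had a median of 0.28, with 15.6% stronger and 0.35% weaker. Those first called without auxin in ana/telophase, early-G1 and mid-G1 had medians of -0.0006, -0.14 and -0.13. The 3521 uncategorised loops lay between structural and CRE loops, with 20.5% at least 1.5-fold weaker, 1.68% at least 1.5-fold stronger and medians of 1.68 and 1.38. Their prometaphase shares were 9.06% and 6.34%. All these values are on the authors' scale, on which the median loop changed by -0.32. Relative to that median, the shares weaker and stronger were 35.5% and 0.72% for structural, 16.1% and 9.35% for dual-function, 1.29% and 21.8% for CRE and 7.75% and 7.10% for uncategorised loops. The even split of CRE loops thus also depends on the scale, and the order of the categories does not.

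**Figure D1:**
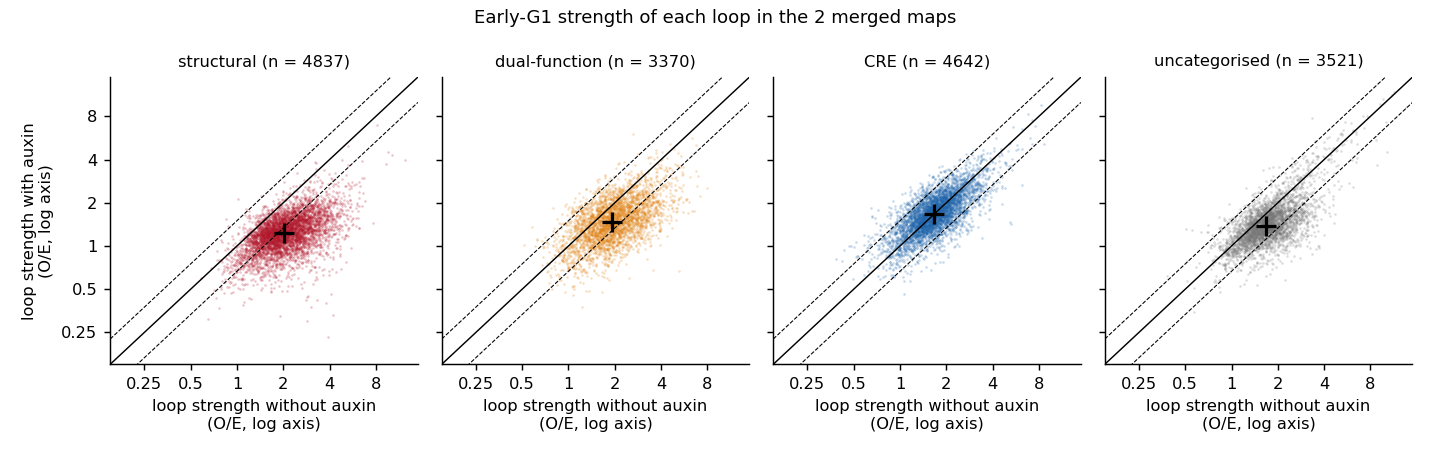
Early-G1 loop strength (O/E) of every loop in -auxin cells (x axis) and +auxin cells (y axis), on log axes, in a panel per loop category. Each point is 1 loop, the cross marks the medians, the solid line equal strength and the dashed lines a 1.5-fold change. The structural cloud lies below the line of equal strength, with medians of 2.03 and 1.23, whereas the CRE cloud is centred on it, with medians of 1.66 and 1.67.

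Structural, dual-function and CRE loops kept their order on each chromosome. The median log2 change of structural loops was negative on 20 of 20 chromosomes, from -0.86 on chromosome 13 to -0.64 on chromosome 9. That of dual-function loops was also negative on 20 of 20, from -0.57 on X to -0.31 on chromosome 2. For CRE loops the chromosome medians ran from -0.05 to 0.07 and 8 of 20 were negative. The ranges of structural and dual-function loops did not overlap, nor did those of dual-function and CRE loops. Uncategorised loops, at -0.41 to -0.13, overlapped the dual-function range, and on chromosome 6 both had a median of -0.32.

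Structural loops changed more at larger sizes. In -auxin cells the median strength of structural loops was 1.43 up to 100 kb, 1.94 over 100 to 200 kb, 2.36 over 200 to 500 kb and 2.19 over 500 kb. In +auxin cells the same loops had medians of 1.05, 1.22, 1.29 and 1.27, a far narrower range. The median log2 change was accordingly -0.46 (SD 0.13) for the shortest, -0.68 (SD 0.09) and -0.82 (SD 0.09) for the next sizes, and -0.77 (SD 0.13) for the longest. Structural loops of every size therefore ended near the same low strength, and those that were strong with CTCF lost the most. Across the 4837 loops, Spearman's rho of size with log2 change was -0.24, given as a description over loops that share maps and anchors.

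CRE loops showed no such trend. Their median log2 change was -0.03, 0.04, 0.05 and -0.02 in the 4 size bins, each within its SD of 0 and with SDs of 0.05 to 0.07. Like structural loops in -auxin cells they were stronger at larger size, from 1.33 up to 100 kb to 1.92 over 500 kb without auxin, and with auxin from 1.30 to 1.90. Dual-function loops changed by -0.35, -0.43, -0.41 and -0.25, with SDs of 0.11 to 0.16. The longest dual-function loops kept a median strength of 1.78 with auxin, whereas structural loops of that size were at 1.27.

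**Figure D2:**
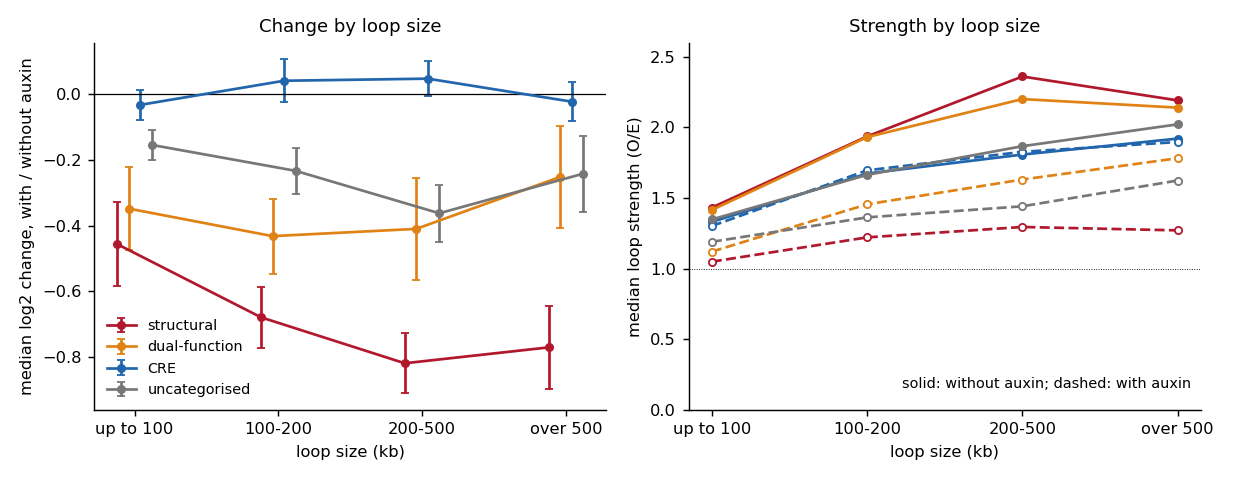
Left, median log2 change in early-G1 loop strength (+auxin over -auxin) by loop size in kb and category, with bars showing the SD of the chromosome medians. Right, the median strengths (O/E) behind it, solid for -auxin and dashed for +auxin cells. Structural loops change from -0.46 up to 100 kb to -0.82 over 200 to 500 kb, while CRE loops stay between -0.03 and 0.05.

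Structural and dual-function loops changed more where the summit was a 10 kb pixel. The authors called some loops on 10 kb maps and others on 25 kb maps. Structural loops with a 10 kb summit had a median log2 change of -0.80, from 2.21 without auxin, and those with a 25 kb summit -0.47, from 1.64 to 1.19. For dual-function loops the changes were -0.45 and -0.13. CRE loops stood at 0.00 (SD 0.04) with 10 kb summits and 0.03 (SD 0.05) with 25 kb summits, a difference within these SDs. Among 10 kb summits alone, the median log2 change of the longest minus that of the shortest structural loops was -0.68, against -0.31 over all structural loops. For dual-function loops this difference was -0.18 among 10 kb summits and 0.10 over all, so its direction depended on the summit width.

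Loops were also ranked by their strength in the -auxin mid-G1 map, an hour later, which is a separate map from both early-G1 maps. The strong tertile of structural loops had early-G1 medians of 2.94 and 1.39 and a log2 change of -1.10 (SD 0.06), with 89.4% at least 1.5-fold weaker. The weak tertile had 1.48 and 1.10, a change of -0.42 (SD 0.08), with 30.5% at least 1.5-fold weaker. Among CRE loops the weak tertile was higher with auxin, at 1.23 and 1.39 (log2 0.18, SD 0.05), and the strong tertile lower, at 2.27 and 2.08 (log2 -0.15, SD 0.05). The ranking map is itself a -auxin map, and how much of this ordering follows from that was not tested.

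The structural loops named here are those with the largest changes among loops that differed little in prometaphase and moved the same way in ana/telophase and mid-G1. The largest decrease was at a 420 kb loop on chromosome 9 (24970001 to 25400000), whose downstream anchor overlaps an exon of Eepd1, an endonuclease/exonuclease/phosphatase family gene. Its strength was 3.92 without and 0.231 with auxin, below the level of the surroundings. Over prometaphase, ana/telophase and mid-G1 the same loop had 1.02, 2.39 and 6.36 without auxin and 1.18, 1.05 and 0.550 with it. The next was a 1020 kb loop on chromosome 5 (58100001 to 59130000) from the start of Pcdh7, a protocadherin gene, at 4.19 and 0.331. Both loops were strong structures in untreated early-G1 cells that left no enrichment at their pixel with auxin.

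A few structural loops went the other way. A 180 kb loop on chromosome 11 (98880001 to 99070000) from the start of Top2a, the topoisomerase of dividing cells, had a strength of 1.02 in -auxin and 2.13 in +auxin cells. An 80 kb loop on chromosome 7 (52760001 to 52850000) between the starts of Nucb1 and Tulp2 and an exon of the transaminase gene Bcat2 had 0.851 and 1.54. Neither was called in any -auxin map and both were first called in early-G1 with auxin. Neither anchor pair held a match to the CTCF consensus.

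Among dual-function loops, the largest decrease was at a 650 kb loop on chromosome 6 (6950001 to 7610000) with an anchor in an intron of Acn9, a mitochondrial assembly factor gene, at 5.25 and 0.668. A 280 kb loop on chromosome 7 (133960001 to 134250000) from the start of Fam57b had 3.54 and 0.679 and carried a convergent pair of consensus matches. Dual-function loops could also be stronger. The 160 kb loop on chromosome 5 (137570001 to 137740000) to the starts of Ache, the acetylcholinesterase gene, and Ufsp1 had 2.61 in -auxin and 5.98 in +auxin cells, and it was already strong in prometaphase, at 3.25 with auxin. The 260 kb loop on chromosome 17 (27070001 to 27340000) from the starts of Cuta and Phf1 to an exon of Lemd2 had 0.795 and 1.85.

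Among CRE loops, the largest decrease was at a 450 kb loop on chromosome 10 (59760001 to 60220000) between exons of Cdh23 and Psap and the start of the nucleoside transporter gene Slc29a3, at 5.26 and 1.42. It had grown from 2.70 in ana/telophase without auxin, while with auxin it stood at 1.81 at that earlier stage. A 260 kb loop on chromosome 3 (35590001 to 35860000) to an exon of Mccc1 had 2.06 and 0.838. The largest increase was at the 100 kb loop on the X chromosome (7540001 to 7650000) from Gata1 to an exon of Suv39h1, at 0.644 and 1.85. A 100 kb loop on chromosome 12 (78060001 to 78170000) from the start of Max, which encodes the dimerisation partner of Myc, had 0.662 and 1.60. Neither of these 2 loops of Gata1 and Max was called in any -auxin map. Both were below the level of their surroundings in -auxin cells and above it in +auxin cells. So was a 170 kb CRE loop of Max, at 0.693 and 1.57. The other CRE loops of Max were not: a 130 kb loop went the other way, from 1.75 to 0.991, and a 1900 kb loop had 1.59 and 1.62.

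The uncategorised loops with the largest decreases were a 230 kb loop on chromosome 10 (122230001 to 122470000) between exons of Ppm1h and Mon2, at 2.80 and 0.820, and a 480 kb loop on chromosome 18 (3500001 to 3990000) from the start of Bambi, a decoy receptor of TGF-beta signalling, at 2.23 and 0.578. The largest increases were at a 290 kb loop on chromosome 6 (71550001 to 71850000) from the start of the histone demethylase gene Kdm3a to an exon of Ptcd3, at 1.75 and 3.51, and at a 200 kb loop on chromosome 3 (144020001 to 144230000) with an anchor in an intron of Hs2st1, at 0.825 and 1.59. The Kdm3a loop was already strong in prometaphase, at 2.93 without and 3.59 with auxin, so its early-G1 strength with auxin was no higher than before.

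A different reading of the same maps is which loops the authors' caller found. A loop counts as detected by early-G1 where the table gives prometaphase, ana/telophase or early-G1 as the stage of its first call. Of the 8493 loops detected by then without auxin, 1777 were also detected by then with auxin (20.9%). These calls and the strengths come from the same maps, so the strengths of loops split by calls are a description of that split.

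For structural loops the share was 4.90% (123 of 2508, 95% interval 4.13 to 5.82%), for dual-function loops 24.7% (545 of 2207) and for uncategorised loops 15.3% (217 of 1420). For CRE loops it was 37.8% (892 of 2358, 95% interval 35.9 to 39.8%). The number of CRE loops detected with auxin, 2156, was nevertheless close to that without, because 1264 were detected by early-G1 in +auxin cells only. Of these, 1160 were never called in -auxin cells and 104 were called there in mid-G1.

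The set of called CRE loops thus differed between treatments far more than their strengths did. The 1466 CRE loops detected by early-G1 without auxin only had medians of 1.79 and 1.56, and 55.2% of them still had a strength of at least 1.5 with auxin. The 2385 structural loops of that kind had 2.30 and 1.26, and 25.8% were at 1.5 or above with auxin. The 1264 CRE loops detected with auxin only had medians of 1.43 and 1.73, and 42.8% of them had reached 1.5 without auxin. Loops without a call thus often kept a strength of at least 1.5, CRE loops most often.

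**Figure D3:**
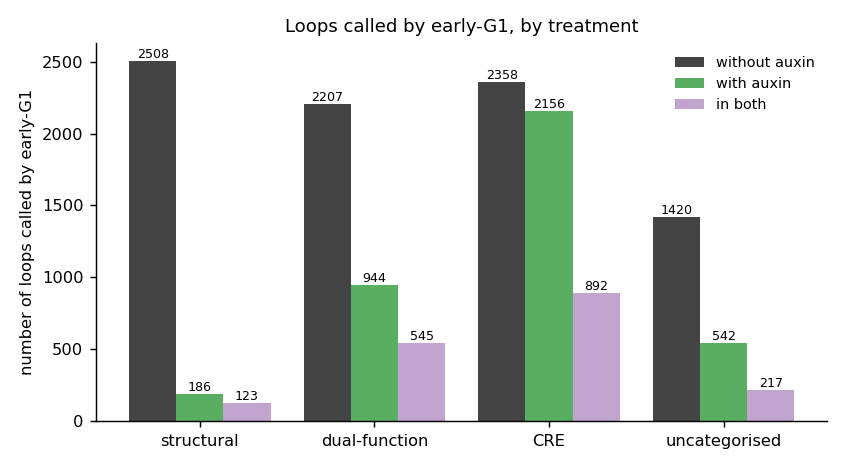
Number of loops called by early-G1 (y axis) per loop category, in -auxin cells, in +auxin cells and in both. Structural loops fall from 2508 to 186 with 123 in common, whereas CRE loops number 2358 and 2156 with 892 in common.

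The share of loops detected in both treatments was lower for longer loops in the 3 named categories. For structural loops it was 12.3% up to 100 kb (51 of 416) and 1.61% over 500 kb (6 of 372). For CRE loops it was 46.3% (303 of 655) and 28.0% (130 of 465), and for dual-function loops 31.8% (176 of 554) and 16.3% (46 of 283). Uncategorised loops differed, at 19.6% up to 100 kb, 12.4% over 200 to 500 kb and 17.3% over 500 kb. The decline for CRE loops came without a matching change in their median strength.

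Timing of the first call moved later more often than earlier. Of the loops detected in both treatments, 494 were first called in ana/telophase without auxin and in early-G1 with auxin, and 183 the reverse. Early-G1 was the stage of the first call in both treatments for 524. For CRE loops the numbers were 219 later and 106 earlier, for dual-function loops 184 and 49, and for structural loops 50 and 13.

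The CTCF consensus was unevenly spread over the categories. Only loops with 10 kb summits were searched, on both strands of the summit bins. A match was present in 28.1% of structural anchors, 23.1% of dual-function anchors, 11.8% of uncategorised anchors and 8.50% of CRE anchors, beside 4.71% of all 255139 tiles of 10 kb in the genome. The consensus is strict and a bin without a match can hold a weaker site. Overlapping matches on opposite strands were counted on each strand.

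The orientation followed the arrangement shown in the sequences above. In structural loops, 234 had a forward match upstream with a reverse match downstream, and 16 had the divergent arrangement. Dual-function loops had 98 and 8. CRE loops had 11 and 3, from 3505 loops searched. A loop with several matches can be in both counts.

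Structural loops with a convergent pair changed by a median log2 of -0.98 (SD 0.31, 234 loops), from 2.46 to 1.28. Those with matches at both anchors that were not convergent changed by -0.84 (SD 0.30, 101 loops), a difference from the convergent loops that lay within the SD. Those with a match at 1 anchor changed by -0.87 (SD 0.10, 1497 loops) and those with no match by -0.73 (SD 0.11, 2025 loops), from 2.13 to 1.27. The differences between these 4 kinds lay within the chromosome SD of the convergent loops. Dual-function loops with a convergent pair changed by -0.75 (98 loops, from 2.33 to 1.38) and those with no match by -0.39 (1666 loops). The 1666 dual-function loops without a match stood at 1.52 with auxin.

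Structural loops with a convergent pair were also set against those without a match at the same size. Up to 100 kb, convergent loops changed by -0.65 (43 loops) and loops without a match by -0.40 (422 loops). Over 500 kb the values were -1.20 (35 loops) and -1.10 (242 loops). The gap between them was narrower for long loops. At these sizes it was about as large as, or smaller than, the chromosome SD of the convergent loops (0.24 and 0.32).

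CRE loops were next set against the structural loops around them. A CRE loop was called crossed where a structural loop had 1 anchor midpoint between the CRE loop's anchors and the other outside, and inside where a structural loop spanned both its anchors. The 1635 crossed CRE loops that lay inside none had medians of 1.66 in -auxin and 1.79 in +auxin cells (log2 0.11, SD 0.06), with 8.75% at least 1.5-fold stronger and 3.98% weaker, against 8.32% and 6.91% of the same loops in prometaphase. The 931 that lay inside a structural loop and were crossed by none had 1.65 and 1.49 (log2 -0.13, SD 0.06), with 0.86% stronger and 8.06% weaker, against 5.48% and 7.41% in prometaphase. In each set the share in the direction of its median was thus near that of prometaphase, and the share in the other direction was lower. The 592 loops both crossed and inside changed by 0.10 (SD 0.13). CRE loops in neither position (1484) changed by -0.02 (SD 0.05). The medians of the crossed and of the inside loops had opposite signs on the authors' scale, and both lay above the median of all loops (-0.32).

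The contrast was seen at 3 of the 4 sizes. Crossed CRE loops that lay inside none changed by 0.31 up to 100 kb (140 loops, 1.19 to 1.41, SD 0.31), by 0.24 over 100 to 200 kb (276 loops), by 0.14 over 200 to 500 kb (565 loops) and by 0.00 over 500 kb (654 loops). Those inside a structural loop and crossed by none changed by -0.10 (475 loops), -0.14 (313 loops), -0.29 (129 loops) and -0.04 (14 loops). At the longest size neither set differed from 0 by its SD over chromosomes. Of the shortest crossed loops 20.7% were at least 1.5-fold stronger.

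Boundaries were measured by ΔIS. It is the unlogged insulation score at the boundary, subtracted from the highest such score up to 120 kb to either side. A larger value means a sharper depletion of contacts across it. The authors had moved the boundaries of the -auxin maps to the lowest mid-G1 insulation nearby, and a boundary called with auxin close to one of these took its position. Boundaries called with auxin farther away kept their own position. A short shift of a boundary with auxin is therefore not followed.

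Of the 6376 boundaries, 2361 (37.0%) were at least 1.5-fold weaker with auxin in early-G1 and 708 (11.1%) at least 1.5-fold stronger, and 70.1% were weaker by any amount. The median strength was 0.422 in -auxin and 0.305 in +auxin cells (log2 -0.34, SD 0.06). Relative to this median 23.3% were weaker and 19.6% stronger by 1.5-fold. In prometaphase, where boundaries are faint, 29.3% were at least 1.5-fold weaker and 22.4% stronger. The early-G1 counts therefore stand on a high background where boundaries are faint. The share stronger was below that in prometaphase. In the lowest quartile of -auxin mid-G1 strength, 26.6% were weaker and 31.3% stronger in early-G1. In the highest quartile these shares were 51.8% and 0.13%. That ranking itself uses a -auxin map.

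Boundaries differed by the kind of loop anchor beside them. The 2889 boundaries within 20 kb of a structural or dual-function anchor had medians of 0.745 and 0.485 (log2 -0.62, SD 0.08), with 52.4% at least 1.5-fold weaker and 3.22% stronger. The 501 with a CRE anchor and none of those had 0.532 and 0.501 (log2 -0.05, SD 0.12), with 14.0% weaker and 11.8% stronger. The 2692 boundaries with no loop anchor nearby were faint, at 0.124 and 0.115 (log2 -0.12, SD 0.10), with 26.6% weaker and 19.6% stronger. In prometaphase the same anchor-free boundaries had 29.5% and 27.2%, and those at CRE anchors 25.9% and 19.4%, so in both kinds both shares were lower in early-G1. Boundaries at structural or dual-function anchors had 30.1% and 18.3% in prometaphase, so for these the share weaker was higher in early-G1 and the share stronger lower. Boundaries at structural anchors alone changed by -0.72 (1415 boundaries) and those at dual-function anchors alone by -0.42 (531 boundaries).

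These kinds also differ in strength, so they were compared within quartiles of -auxin mid-G1 boundary strength. In the third quartile, boundaries at structural or dual-function anchors went from 0.599 to 0.395 (981 boundaries, log2 -0.59, SD 0.14), those at CRE anchors from 0.602 to 0.546 (191 boundaries, log2 -0.09, SD 0.17), and those at no anchor from 0.559 to 0.463 (323 boundaries, log2 -0.22, SD 0.14). In the highest quartile the values were -0.66 (1348 boundaries), -0.23 (112 boundaries) and -0.39 (76 boundaries). In both quartiles boundaries at structural or dual-function anchors changed the most, while the differences between CRE-anchor and anchor-free boundaries lay within their SDs (0.18 and 0.24 in the highest quartile). In the second quartile the 3 kinds changed by -0.50 (SD 0.23), 0.07 (SD 0.21) and -0.18 (SD 0.15). In the lowest, where boundaries are faint, they changed by -0.24 (62 boundaries, SD 1.12), 0.97 (28 boundaries, SD 0.81) and 0.04 (1472 boundaries, SD 0.19).

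Boundaries that anchor more CTCF loops were stronger without auxin and changed more. With 1 structural or dual-function loop at the boundary the medians were 0.565 and 0.402 (877 boundaries, log2 -0.48), and with 7 or more they were 1.18 and 0.649 (171 boundaries, log2 -0.86). Boundaries with 2 to 3 and 4 to 6 loops changed by -0.61 and -0.76. The SD over chromosomes rose to 0.36 in the smallest of these sets, which is about as large as the difference between the ends.

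**Figure D4:**
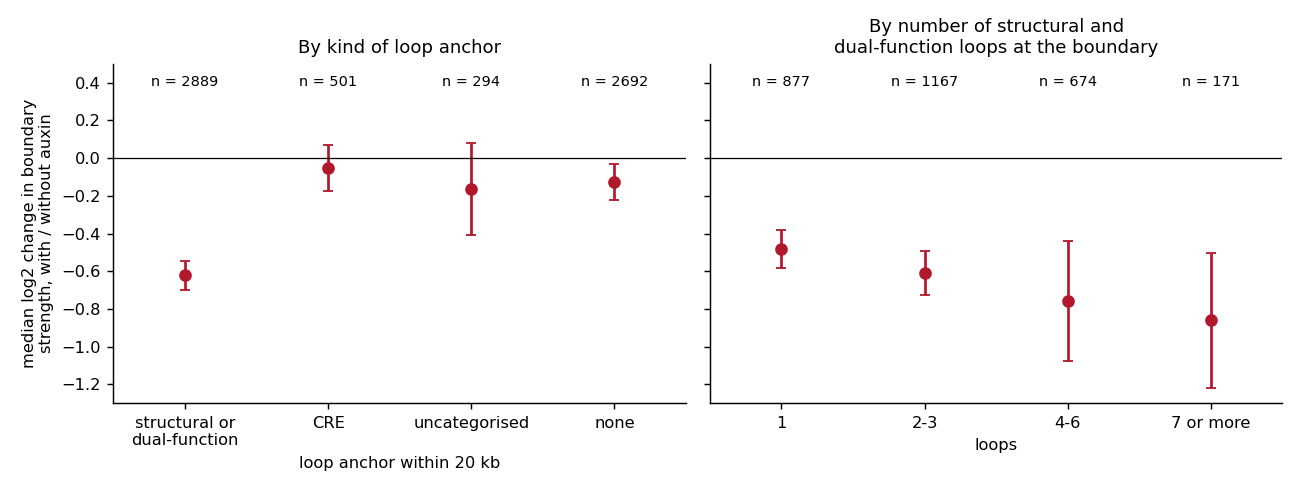
Median log2 change in early-G1 boundary strength (ΔIS, +auxin over -auxin) by the kind of loop anchor within 20 kb (left) and by the number of structural and dual-function loops at the boundary (right), with bars showing the SD of the chromosome medians and the number of boundaries above. Boundaries at structural or dual-function anchors stand at -0.62, CRE-anchor and anchor-free boundaries at -0.05 and -0.12, and the change runs from -0.48 with 1 loop to -0.86 with 7 or more.

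The change of a boundary also went along with that of its loops. Where the structural and dual-function loops at a boundary changed by a median of -1 or less, the boundary changed by -0.89 (582 boundaries). Where the loops changed by -0.5 to -1 and by 0 to -0.5 it changed by -0.72 (1289 boundaries) and -0.40 (861 boundaries), and where they were stronger it changed by -0.17 (157 boundaries, SD 0.24). Across the 2889 boundaries Pearson's r was 0.27 and Spearman's rho 0.32, as a description of features read from the same 2 maps.

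The boundaries with the largest changes were chosen among those of at least 0.5 in the stronger map that moved the same way in ana/telophase and mid-G1. The boundary in an exon of Myo5c, a myosin gene (chr9:75120001-75130000), had 0.582 in -auxin and 0.0131 in +auxin cells. The boundary at chr4:136190001-136200000, outside protein-coding genes and with 6 structural or dual-function loops, had 1.26 and 0.0289. The boundary at the start of Vps45, a vesicle sorting gene (chr3:95860001-95870000), with 7 such loops, had 0.617 and 0.0171. All 3 were nearly erased with auxin while staying well formed without it. In prometaphase, where boundaries are faint, they were also over 1.5-fold weaker with auxin, at log2 changes of -0.84, -0.63 and -1.22.

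The boundaries named here that were stronger with auxin were absent or faint without it. The bin at chr8:88090001-88100000, near the start of the chaperone gene Dnaja2 and at a CRE anchor, had 0.0212 and 0.579. The bin in an exon of Dnajb14, near the start of Lamtor3 (chr3:137560001-137570000), had 0.0803 and 0.511. Both lie within 20 kb of a gene start, as does the weaker boundary at Vps45. The share of all boundaries that do was not computed.

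Genes of erythroid regulation, cell cycle and chromatin architecture were then looked up at loop anchors. A gene was counted where its annotated start lay in an anchor summit, and all loops have the background of 31.4% weaker and 2.55% stronger. Erythroid transcription factors (16 of 20 genes) had 63 loops, of which 9 were at least 1.5-fold weaker and 7 stronger, with a median log2 change of 0.02. Cell cycle and early-response genes (13 of 17) had 43 loops, 5 weaker and 6 stronger, with a median of 0.10. Erythroid surface, haem and globin genes (10 of 20) had 25 loops, 7 weaker and 2 stronger, with a median of -0.09. CTCF and cohesin genes (9 of 11) had 15 loops, 3 weaker and none stronger (median -0.16), and Hox genes (17 of 39) had 23 loops, 12 weaker and 2 stronger (median -0.67). With gene starts counted up to 10 kb from the summit, the cell cycle median turned to -0.11 and the erythroid surface, haem and globin median moved to -0.35. The lists differ in the kinds of loop they hold: 29 of the 43 cell cycle loops were CRE loops, and 9 of the 23 Hox loops were structural.

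**Figure D5:**
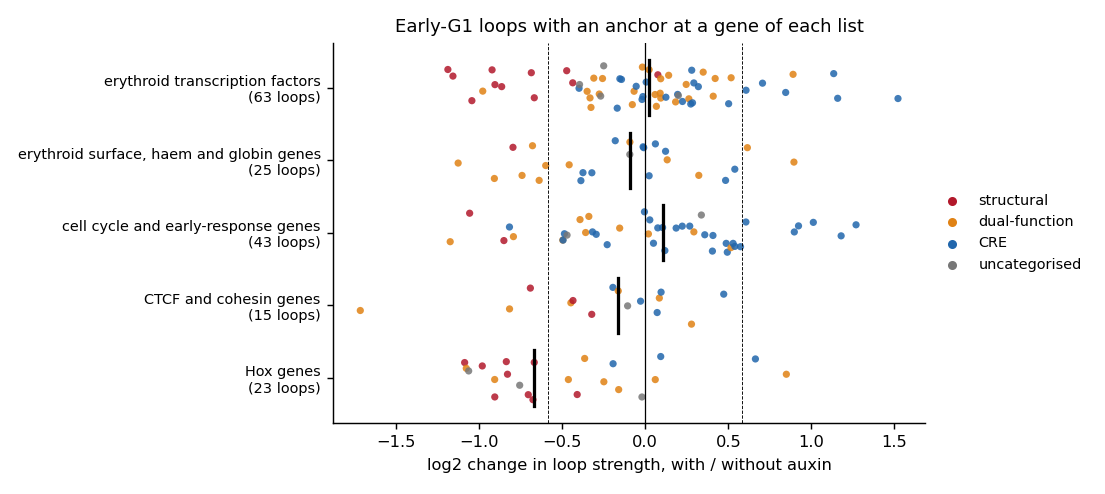
Log2 change in early-G1 loop strength (x axis, +auxin over -auxin) of each loop with an anchor at a gene of 5 lists (y axis), coloured by loop category. Each point is 1 loop, placed with vertical jitter, the thick bar is the list's median and the dashed lines mark a 1.5-fold change. The Hox median lies at -0.67 and the cell cycle median at 0.10 (-0.11 with gene starts up to 10 kb from the summit), and the loops of erythroid transcription factors that are at least 1.5-fold weaker are structural or dual-function.

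Genes of the erythroid regulatory network differed among themselves. Gata1, the master regulator of the erythroid lineage and disrupted in these cells, had 2 CRE loops, both at least 1.5-fold stronger. Its second loop, of 130 kb, had 1.32 and 2.02. Gata2, which precedes Gata1 in the lineage, had 5 loops with log2 changes from -0.35 upwards, of which 2 were at least 1.5-fold stronger, 1 of them a 1670 kb CRE loop at 0.850 and 1.87. Sox6, a repressor of embryonic globin genes, had 8 loops that were all weaker by some amount, 4 of them, all structural, by at least 1.5-fold, and the longest of its loops (825 kb) had 2.32 and 1.44.

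Single genes held loops that moved in opposite directions. At Lmo2, which encodes a bridging factor of the erythroid complex, a 100 kb dual-function loop had 3.20 and 1.62 after 1.70 and 1.12 in prometaphase, while CRE loops of 180 kb and 160 kb had 2.19 and 2.68, and 1.20 and 2.16. At Cbfa2t3, a corepressor gene, a 150 kb structural loop had 1.85 and 0.895 and a 340 kb CRE loop 1.03 and 2.30. At Runx1 the 10 loops ran from -1.19 to 0.28, with 2 structural loops at least 1.5-fold weaker. Klf3, which encodes a repressor downstream of Klf1, had the strongest -auxin loop of the list, a 430 kb structural loop at 3.44 and 1.81.

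Of the cell cycle genes, Cdkn1b, which encodes the cyclin-dependent kinase inhibitor p27, had 7 CRE loops, all stronger with auxin by a log2 change of 0.27 to 1.01. The strongest, of 1880 kb, had 4.23 and 5.61. Its treatments differed more in prometaphase, at 1.17 and 2.82 (log2 1.27, against 0.41 in early-G1). A 270 kb loop had 1.54 and 3.10. Myc had 5 loops, all weaker, from -1.17 to -0.49. The 1750 kb dual-function loop of Myc had 5.46 and 2.42 and the 1670 kb loop 5.12 and 3.63. In prometaphase they had 1.31 and 1.91, and 1.45 and 0.950. Both genes had contacts over megabase distances that stayed enriched with auxin, and the changes differed in direction.

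Of the erythroid surface, haem and globin genes, Kit, the receptor for stem cell factor, had a 270 kb dual-function loop at 2.42 and 1.29 and CRE loops of 250 kb at 2.02 and 1.62, of 275 kb at 1.63 and 1.78 and of 120 kb that changed by a log2 of -0.01. In the alpha-globin cluster an 80 kb dual-function loop at the adult gene Hba-a2 had 1.88 and 1.18, and a 260 kb dual-function loop at the embryonic gene Hba-x had 1.57 and 2.92. The globin genes are near copies of each other, and the effect of reads shared between copies was not tested.

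The Hox clusters, arrays of homeotic genes bordered by CTCF sites, held the largest share of weaker loops among the lists. The 270 kb structural loop at Hoxb7 and Hoxb8 had 3.71 and 1.75, the 350 kb dual-function loop at Hoxc10 had 3.78 and 2.01 and the 1110 kb structural loop at Hoxd12 had 3.04 and 1.54. The loop at Hoxb7 and Hoxb8 differed less but the same way in prometaphase, at 1.54 and 1.08, as did that at Hoxc10, at 1.61 and 1.17. A 240 kb dual-function loop at Hoxc6 had 1.56 and 2.81, in the other direction. Of the 3 boundaries in the clusters 2 were at least 1.5-fold weaker, beside 37.0% over all boundaries and 29.3% in prometaphase. The bin near Hoxd genes (chr2:74520001-74530000) had 0.399 and 0.0522, the bin near Hoxb7, Hoxb8 and Hoxb9 (chr11:96120001-96130000) had 0.957 and 0.188. The bin near Hoxc9, Hoxc10 and Hoxc11 (chr15:102790001-102800000) had 3.08 and 2.15.

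Genes of CTCF and cohesin itself had few loops. Pds5b, a cohesin regulator, had 3 dual-function loops, all weaker, from -1.72 to -0.45, and the strongest, of 700 kb, had 5.47 and 3.10. Smc3, which encodes a core ring subunit, had a 600 kb dual-function loop at 2.50 and 2.65 and a 410 kb CRE loop at 2.30 and 2.45. Of 8 boundaries near erythroid transcription factor genes 2 were at least 1.5-fold weaker and 0 stronger, beside 37.0% and 11.1% over all boundaries. The boundary near Ldb1, which encodes a bridging factor, changed by a log2 of -1.23, to 0.533, and that near Sox6 had 1.47 and 0.830. The boundary near Zfpm1, the gene for the GATA1 cofactor, had 1.09 and 1.38, a difference under 1.5-fold.

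For structural loops, early-G1 lay between its neighbouring stages. At least 1.5-fold weaker were 41.6% of structural loops in ana/telophase, where the share over all loops was 20.4%. At mid-G1 this held for 71.3%, with 36.7% over all loops, beside the 61.3% of early-G1. Loop by loop, 73.2% of structural loops had a more negative change in early-G1 than in ana/telophase, and 33.2% a more negative one than in mid-G1. The log2 change had the same sign at all 3 stages for 91.6% of structural loops, 78.6% of dual-function loops and 58.2% of CRE loops. For boundaries at structural or dual-function anchors the median change of -0.62 stood between -0.59 at the earlier stage and -0.74 in mid-G1. The median change of dual-function loops was also ordered by stage, at -0.25, -0.38 and -0.44, as was that of uncategorised loops, at -0.17, -0.24 and -0.30, and that of boundaries at structural anchors alone, at -0.65, -0.72 and -0.84. Anchor-free boundaries were ordered too, at -0.10, -0.12 and -0.26, as were boundaries with both structural and dual-function anchors, at -0.61, -0.63 and -0.74. Early-G1 did not lie between its neighbours in the groups that follow. Boundaries at CRE anchors changed by -0.14, -0.05 and -0.16 over the 3 stages, and those at uncategorised anchors by -0.22, -0.16 and -0.20. Over all boundaries the medians were -0.35 at the earlier stage, -0.34 in early-G1 and -0.48 at the later one, at dual-function anchors alone -0.44, -0.42 and -0.54, and for CRE loops -0.01, 0.01 and -0.02. The differences between stages were not tested, and the other construct of the ana/telophase cells cannot be told apart from their stage.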

How the data were processed

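In situ Hi-C libraries (DpnII) were aligned by the authors to mouse build mm9 with Bowtie2, processed with HiC-Pro, and merged per condition. Each early-G1 map holds 2 libraries, described by the study as biological replicates. The deposited boundary table gives a signal, ΔIS from Knight-Ruiz balanced 10 kb maps, and the deposited loop table gives a ratio, observed over donut-expected contacts. Boundaries were called with rGMAP and loops with HICCUPS (juicer_tools) in maps of either treatment. Only merged values were analysed, so no test was run. Python 3.11.15, numpy 2.4.6, pandas 2.3.3, scipy 1.17.1 and matplotlib 3.10.9 were used, and the functions were tested on simulated data. Genes and sequence came from NCBIM37 (mm9) with GENCODE annotation. Boundary values were taken as starts of 10 kb bins. The members and gene lists were chosen with earlier results of these data known. Listed symbols without an entry in the annotation were left out. Some features chosen by the rules below are not reported here.

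Named loops had a 10 kb summit, a strength of at least 1.5 in the stronger early-G1 map, a change under 1.25-fold in prometaphase and of at least 1.25-fold in the same direction in ana/telophase and mid-G1. The 2 largest decreases and increases per category were named, the 3 largest for boundaries (at least 0.5), and per gene list the 3 strongest loops. Further loops of listed genes were chosen after their values were seen, as were the 3 loops with printed sites. The tables used here hold no contact counts, and the study's sequencing statistics were not used, so no depth is given. The alternatives tried were pseudocounts, centring, other folds, filters and anchor distances.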

Additional observations from a re-analysis of the deposited data

How the results depend on the processing

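No paired analysis was possible because the loop and boundary tables analysed here hold values of replicate-merged maps only, and leaving out a replicate could not be run for the same reason. Contact maps of single replicates were not analysed here. Of 136 alternative values, 55 moved by less than the SD over chromosomes or stayed within the counting interval, and of 68 alternative medians 61 kept their sign. Because 1 map stands for each treatment, no alternative speaks to variation between cultures, and precision per feature is limited by a depth that the tables do not give.

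Centring on the median of all, which shifts loops by 0.32 and boundaries by 0.34 (log2), turned the uncategorised median to 0.077 and set the boundary median to 0.0 by construction. It moved the structural, dual-function and CRE medians to -0.40, -0.066 and 0.32. The shares weaker and stronger became 23.3% and 19.6% for boundaries, 35.5% and 0.72% for structural, 16.1% and 9.35% for dual-function, 1.29% and 21.8% for CRE and 7.75% and 7.10% for uncategorised loops.

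A pseudocount of 0.1 on boundary strength gave a median of -0.24, shares of 26.7% and 4.75%, and -0.51 at structural or dual-function anchors. Keeping boundaries of at least 0.1 gave shares of 38.5% and 8.72%, and leaving out the deposited cluster5 gave 38.3% and 8.96%. A pseudocount of 0.5 on loop strength moved the structural and dual-function medians to -0.54 and -0.29, and structural loops with a match at 1 anchor or none to -0.66 and -0.56. With it the shares weaker and stronger were 44.9% and 0.041% for structural, 23.6% and 0.83% for dual-function, 2.41% and 2.20% for CRE and 12.3% and 0.45% for uncategorised loops.

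With 10 kb summits only, the structural and dual-function medians were -0.80 and -0.45. The shares weaker were 67.6% for structural, 40.0% for dual-function, 7.39% for CRE and 24.3% for uncategorised loops, the share stronger of CRE loops was 6.85%, and 39.8% of CRE loops were detected in both treatments. The longest minus the shortest loops then gave -0.68 for structural, -0.18 for dual-function and -0.38 for uncategorised loops.

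Loops first detected in ana/telophase had medians of -1.01 (structural), 0.056 (CRE) and -0.053 (uncategorised), with 80.7%, 39.5%, 3.72% and 11.7% weaker in the order structural, dual-function, CRE and uncategorised, and with 0.0% of structural and 3.45% of uncategorised loops stronger. The ratio of mean strengths gave -0.42 for boundaries and -0.80 for structural loops.

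At the lower of the other folds tried, 51.3% and 16.8% of boundaries, 82.3% and 0.50% of structural, 55.6% and 7.92% of dual-function, 16.8% and 18.2% of CRE and 41.6% and 5.71% of uncategorised loops were weaker and stronger. At 2-fold the values were 20.9% and 6.41%, 28.7% and 0.021%, 12.2% and 0.15%, 0.88% and 0.54%, and 5.03% and 0.20%. With a strength of at least 1.5 in place of the calls, the shares present in both treatments were 28.1% (structural), 58.2% (dual-function), 81.8% (CRE) and 52.5% (uncategorised). The medians, the shares weaker and the shares detected in both treatments kept the order of structural, dual-function and CRE loops under each setting tried for them.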
